A study of Mus musculus with 8 samples.

Results

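Predicted mouse genes that carry a Gm number in place of a descriptive symbol were examined in B16-OVA cells, a line of C57BL/6-derived B16F10 melanoma cells that express ovalbumin. The members were selected on their raw counts: a Gm gene entered the set if its Ensembl row had 10 or more counts in at least 4 of the 8 libraries, whichever group these were in. This left 1507 of the 24916 Gm-named Ensembl rows, or 6.05%, in a table of 57353 rows. The members made up 9.87% of the 15273 rows that met the same count rule. The study compared 4 Control libraries of untreated cells with 4 HMF libraries, and all 8 were wild-type (WT) cells of the same line. HMF cells had spent 24 h with magnetic rod-shaped micromotors (MagRMs) before they were exposed to a high-frequency magnetic field (HMF), and cells were collected 6 h later. No library analysed here had the micromotors alone or the field alone, so the effects of these components cannot be told apart. The treatment tag was the same in all 8 libraries and the groups were read from the titles. No label says that replicates came from separate cultures, so the spread between libraries may be technical.

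Gm numbers are provisional names that the mouse nomenclature gives to gene models found by annotation pipelines, and they cover protein-coding genes, long noncoding RNAs, antisense transcripts and pseudogenes alike. Several belong to the immunity-related GTPases (IRGs), a family that is greatly expanded in the mouse. Interferons induce these proteins in many cell types, and they act on the membranes around intracellular bacteria and parasites. The family lies in clusters on chromosomes 11 and 18. Type I interferon signals through the factor ISGF3, which binds the interferon-stimulated response element (ISRE) in promoters, and interferon gamma acts through gamma-activated sites (GAS). The transcription factor IRF1 binds elements like the ISRE.

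Promoter windows are shown for Gm genes beside interferon-induced genes, because several of these neighbours moved together. Each window holds 250 bases before and 50 after the RefSeq gene start, in RefSeq's GRCm38.p6 build and on the gene's own strand, and reads 5′ to 3′. The Gm12250 window is chr11:58183593-58183892 on the plus strand, that of Gm12185 is chr11:48927133-48927432 on the minus strand and that of Gm12216 is chr11:53859207-53859506 on the minus strand. The Gm6034 window is chr17:36042711-36043010 on the plus strand, and Gm5431, at chr11:48902103-48902402 on the minus strand, is shown as a riser with no capitals. Capitals mark ISRE-like matches (GAAA, any 2 bases, GAAA, on either strand) and GAS-like matches (TTC, any 3 bases, GAA, the same on either strand).
Gm12250: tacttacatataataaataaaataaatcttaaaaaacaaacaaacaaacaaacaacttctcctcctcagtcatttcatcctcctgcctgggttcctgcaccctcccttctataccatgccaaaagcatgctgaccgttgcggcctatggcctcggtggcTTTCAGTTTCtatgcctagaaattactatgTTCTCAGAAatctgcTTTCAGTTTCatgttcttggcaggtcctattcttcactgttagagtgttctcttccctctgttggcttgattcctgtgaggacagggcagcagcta
Gm12185: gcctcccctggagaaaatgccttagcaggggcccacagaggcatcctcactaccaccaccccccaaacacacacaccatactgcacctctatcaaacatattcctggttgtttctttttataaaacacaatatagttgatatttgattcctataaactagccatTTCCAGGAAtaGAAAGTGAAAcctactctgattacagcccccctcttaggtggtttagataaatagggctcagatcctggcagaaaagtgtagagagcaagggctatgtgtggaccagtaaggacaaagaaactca
Gm12216: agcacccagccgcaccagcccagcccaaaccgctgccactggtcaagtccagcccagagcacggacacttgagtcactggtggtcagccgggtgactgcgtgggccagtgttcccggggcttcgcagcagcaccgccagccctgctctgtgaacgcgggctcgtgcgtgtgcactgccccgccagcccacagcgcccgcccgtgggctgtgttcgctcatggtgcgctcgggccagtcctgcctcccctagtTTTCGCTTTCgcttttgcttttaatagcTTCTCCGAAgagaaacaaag
Gm6034: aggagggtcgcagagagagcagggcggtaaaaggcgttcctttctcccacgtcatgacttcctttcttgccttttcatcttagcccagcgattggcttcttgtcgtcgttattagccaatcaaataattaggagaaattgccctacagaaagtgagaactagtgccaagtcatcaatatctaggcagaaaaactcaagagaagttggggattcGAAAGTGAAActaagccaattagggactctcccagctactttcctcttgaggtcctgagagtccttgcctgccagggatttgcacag
Gm5431: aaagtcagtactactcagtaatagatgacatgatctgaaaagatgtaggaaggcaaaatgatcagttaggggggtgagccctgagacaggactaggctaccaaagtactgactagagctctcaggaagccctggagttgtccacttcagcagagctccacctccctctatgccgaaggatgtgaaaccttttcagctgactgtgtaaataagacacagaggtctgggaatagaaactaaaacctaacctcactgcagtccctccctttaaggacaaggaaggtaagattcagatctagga

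In these windows Gm12250 held 2 ISRE-like matches, which began 91 and 46 bases before the RefSeq start, with a GAS-like match between them at 61 bases. Gm12185 held 1 ISRE-like match at 75 bases before the start and 1 GAS-like match at 86 bases, and Gm6034 held 1 ISRE-like match at 37 bases before it. In Gm12216 both kinds began after the start, at bases 3 and 31. Of 32817 RefSeq promoter windows of 300 bases, 3.43% held an ISRE-like match and 8.29% a GAS-like match. The 339 windows of the 272 members that RefSeq lists held these at 5.31% and 9.44%. A kappaB-like pattern, GGG with CC after any 5 bases, on either strand, stood in 50.8% of all windows and 49.6% of member windows. No ISRE-like or GAS-like letters were found in the windows of Gm5431, Gm7609, Gm13822 or Gm20559, which also rose. Single windows on chromosome 18, where Gm4951 and Gm4841 lie, were left out of this description. A match is a string of letters, and binding was not measured. The RefSeq start lay at the GENCODE M21 start of the gene for Gm12216 and Gm6034. It lay 2 bases from it for Gm7609, 13 for Gm20559 and 62 for Gm5431. The gap was 1.0 kb for Gm13822, 3.9 kb for Gm12250 and 65.0 kb for Gm12185. The windows of Gm13822, Gm12250 and Gm12185 therefore belong to another start than that of the row whose counts are reported, and the deposited row of Gm12250 spans only 1274 bases.

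Control libraries held 13973961 to 17497913 counts over the whole table, and HMF libraries 14159514 to 19295358. The members took 1.12% to 1.34% of counts in Control and 1.12% to 1.18% in HMF. The melanoma markers were all detected, with summed counts scaled to library size (CPM) of 16432 to 18436 in Control and 12417 to 15226 in HMF, and 4 of the 7 (Tyr, Dct, Tyrp1 and Mitf) were lower in HMF. Summed macrophage markers stood at 8.17 to 12.7 CPM in Control and 14.9 to 16.1 CPM in HMF, with Adgre1 and Itgam at 0 and Cd68 higher. Summed fibroblast markers stood at 14.1 to 29.1 CPM in Control and 8.15 to 12.1 CPM in HMF, with Thy1 at 0 and Col1a2 lower. T and NK cell markers reached at most 0.752 CPM with 7 of 8 at 0, and all 6 keratinocyte markers were at 0. The part of these marker shifts in the results was not tested. HMF replicate 4 stood apart from the other HMF libraries, with a chi-square of 16.4 to 32.3 per degree of freedom against 3.92 to 6.89 among the other three. Control replicates 1 and 2 stood apart from 3 and 4, at 15.8 to 18.8 between the pairs.

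Of the 1507 members, 1434 passed the filter on low counts and were tested with all other genes in edgeR's quasi-likelihood test, and 73 were not tested. At a Benjamini-Hochberg adjusted p below 0.05, 184 members, or 12.8%, were called: 81 were higher in HMF and 103 lower. Over all 15082 genes tested, 26.7% were called, 13.7% higher and 13.0% lower. The median log2 fold change was -0.03 for members and -0.02 for all genes. In all, 48 members rose by 2-fold or more and 37 fell by as much, or 3.35% and 2.58% of those tested, close to the 3.36% and 2.23% of all genes. With limma on log2(FPKM + 1), 1625 of all genes were higher and 2311 lower, and 81 and 139 of the members. Control and HMF libraries did not overlap in CPM for 208 members, or 14.5%, 93 higher and 115 lower in HMF, where 29.1% of all genes showed no overlap. In bulk RNA such as this, fewer cells that express a gene and less RNA per cell cannot be told apart. In all, 8 members reached 10 counts only in HMF libraries and were all called higher, and 5 did so only in Control, of which 1 was tested and called lower. These had to differ by the way they were chosen, and without them 73 members were higher and 102 lower. Without HMF replicate 4 the counts were 81 higher and 88 lower, without Control replicate 1 they were 80 and 87, and without Control replicate 2 they were 85 and 80.

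The members were mostly low in level, with a median of 0.83 log2 CPM against 4.52 for all genes tested. Below 0 log2 CPM, 12 of 280 members were called, or 4.29%, against 12.2% of genes with other Ensembl names. From 0 to 2 log2 CPM the shares were 10.7% of 803 members and 18.6% of other genes, and from 2 to 4 they were 25.2% of 262 members and 26.0% of other genes. At 4 or more log2 CPM, 20 of 89 members were called, or 22.5%, against 33.2%. The called share of members therefore lay below that of other genes at 3 of these 4 levels and near it from 2 to 4 log2 CPM. A missing call in a low member does not show that it was unchanged.

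**Figure D1:**
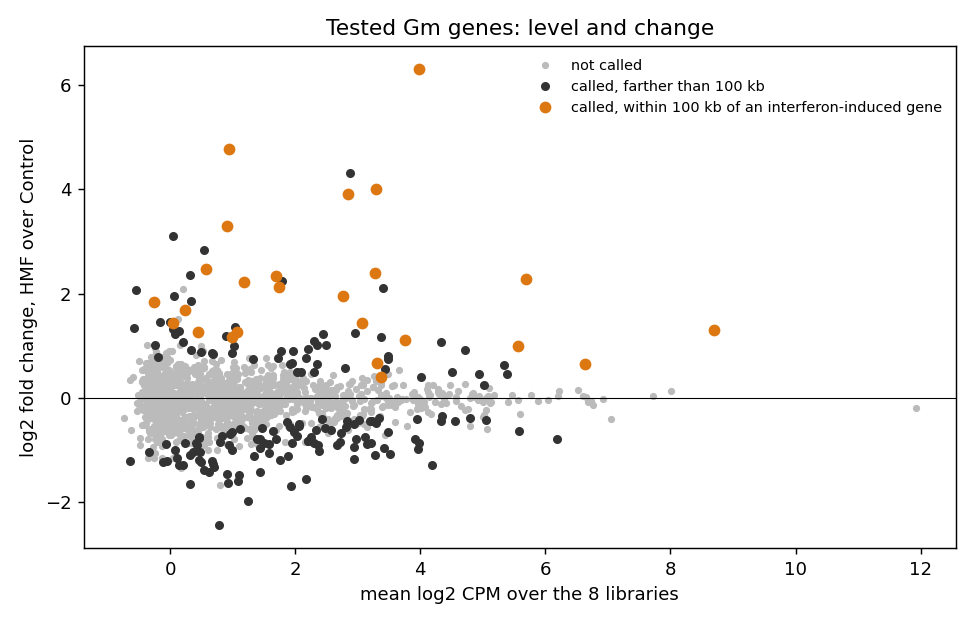
Each point is 1 of the 1434 tested Gm genes, with its mean log2 CPM over the 8 libraries on the x axis and its log2 fold change, HMF over Control, on the y axis. Orange points are the 25 called genes within 100 kb of an interferon-induced gene, dark points are the other 159 called genes and grey points were not called. The rises above 4 on the log2 scale were Gm12250, Gm5431, Gm7609 and Gm4841.

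GENCODE M21 gave a type to 1499 of the 1507 members, matched by gene ID. The largest class was the processed pseudogenes, copies of spliced messages that were inserted back into the genome: of 468 tested, 20 rose and 26 fell, or 9.83% called. Long intergenic noncoding RNAs (lincRNAs) gave 30 lower and 12 higher of 199 tested. Their 15.1% lower was near the 13.0% of all genes, and their 21.1% called was below the 26.7% of all genes. Processed transcripts showed 12 lower and 2 higher of 65, or 21.5% called and 18.5% lower. Antisense RNAs gave 16 lower and 7 higher of 214. Among 111 tested protein-coding members 13 rose and 4 fell, and the 11.7% higher was near the 13.7% of all genes. Among 45 pseudogenes of other kinds 6 rose, and the 13.3% higher was near the 13.7% of all genes. Gm16026 and Gm15753 were among these 6. Both passed the count rule through HMF libraries alone and so had to be higher. No pseudogene of these other kinds fell in edgeR's quasi-likelihood test or in DESeq2. At an unadjusted p below 0.05, 2 fell in edgeR's quasi-likelihood test, and limma on FPKM values called 1 lower. Members of the GENCODE class TEC, loci that await experimental proof, gave 13 higher and 10 lower of 246. The difference between classes was not tested.

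The position of the members was set beside that of interferon-induced genes, taken from a list of 169 genes chosen with earlier results of these data known. Of its genes, 165 were in the table and 146 were tested, of which 141 rose and 1, Ifi27, fell. In all, 50 members lay within 100 kb of a list gene, measured as the gap between gene bodies, and together they neighboured 36 list genes. Of these 50, 49 were tested and 25 rose, 21 of them by 2-fold or more. None of the 49 fell in edgeR's quasi-likelihood test or in DESeq2. At an unadjusted p below 0.05, 2 were lower in edgeR's quasi-likelihood test, and limma on FPKM values called 2 lower. Their median log2 fold change was 0.65. Without Gm12250, Gm5431 and Gm6034, which entered the set through HMF libraries alone and so had to be higher, 22 of 46 rose, 18 of them by 2-fold or more, and the median was 0.64. Of the 1385 tested members farther away, 56 rose and 103 fell, 27 and 37 of them by 2-fold or more, and the median was -0.05. Within 25 kb 18 of 28 tested members rose, or 15 of 25 without those 3, and within 500 kb 35 of 100. The list was not chosen independently of these libraries, so these counts are a description and carry no test.

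**Figure D2:**
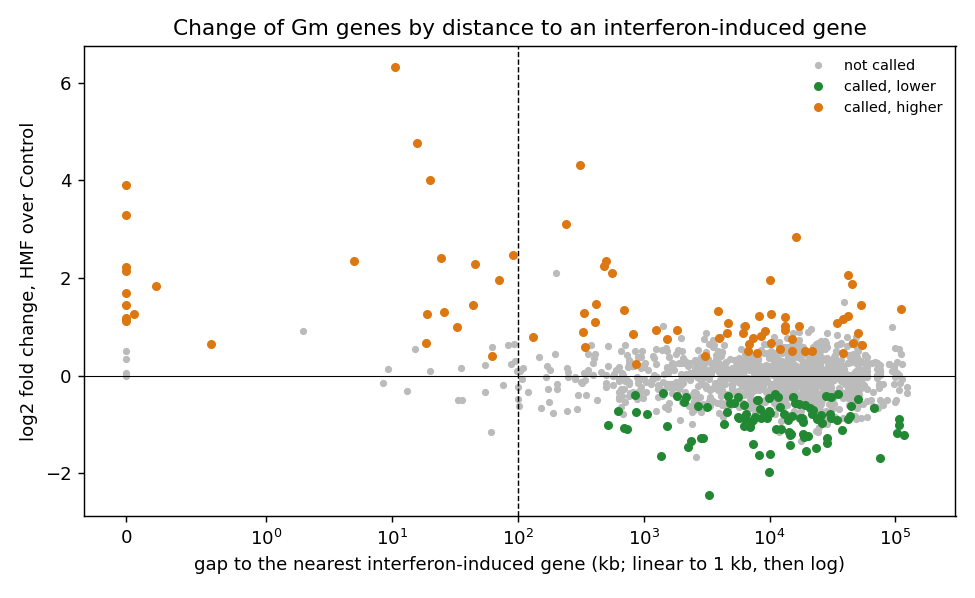
Each point is 1 tested Gm gene, with the gap in kb to the nearest interferon-induced gene on the x axis (linear to 1 kb, then log) and its log2 fold change, HMF over Control, on the y axis. Orange genes were called higher, green genes lower and grey genes were not called, and the dashed line marks 100 kb. All 25 called genes left of the line were higher, and the largest rise was 6.31.

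Nearness did not carry a rise in every case. Of the 49 tested members within 100 kb, 24 were not called, and these ran from -1.15 for Gm45777 to 0.91 for Gm23201. Gm45777 is a pseudogene 61.7 kb from Ifi27, which was itself called lower at -0.60. Gm47260, 18.6 kb from Ifi27, moved against it and was called higher at 0.68. It overlaps Ddx24 on the same strand, which was called higher at 0.80. Gm23201 is a small RNA gene 1.98 kb from Znfx1. Of 12 members that overlapped a list gene, 8 rose. Those without a call included Gm20661 in Uba7 at 0.00 ± 0.12 (SE, as for each log2 fold change here), Gm45338 in Rtp4 at 0.05 ± 0.16 and Gm43633 in Parp11 at 0.34 ± 0.28. The adjusted p values of these members in edgeR's quasi-likelihood test ran from 0.409 to 0.991. Without any member that overlaps another row of the table, 8 of 17 members within 100 kb rose.

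The largest rise belonged to Gm12250 (ENSMUSG00000082292), which RefSeq also lists as Irgb10, an IRG known in the mouse to act on the membranes of intracellular bacteria. GENCODE M21 calls the row a processed pseudogene. It occupies chromosome 11, 58078565 to 58079838 on the plus strand, overlaps no other row and lies 10.5 kb from Igtp, another IRG. Its CPM was 0.18, 0.43, 0.49 and 0.45 in the Control libraries and 23.2, 30.6, 24.8 and 45.4 in the HMF libraries. The raw counts behind these were 3, 6, 8 and 8 against 339, 448, 350 and 848. Every HMF library was far above every Control library, and the Control counts were all below 10. The log2 fold change was 6.31 ± 0.32 (SE, n = 4 per group), with an adjusted p of 1.5e-07 from edgeR's quasi-likelihood test. Igtp itself rose by 2.76 ± 0.10 on the log2 scale, and Mrpl22, a mitochondrial ribosomal protein gene 8.17 kb away on the other side, by 0.41 ± 0.10. Gm12250 passed the count rule through its HMF libraries alone, as did Gm5431, Gm16026, Gm15753 and Gm6034 below.

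The spans of neighbouring genes described from here on were drawn after the values had been seen. Another chromosome 11 group of IRG genes runs from Irgm1 to Ifi47, at 48752795 to 48987801, a span of 235 kb. It holds 2 members, and both rose, as did all 7 of its other tested genes. Just outside this span, Gm16170 and Gm12184 lie 8.47 kb and 35.3 kb from Irgm1. They were not called, at -0.14 ± 0.29 and 0.15 ± 0.13 on the log2 scale. Gm5431 (RefSeq also Irgb9b8), at 48778249 to 48793041, lies 15.7 kb from Irgm1. It stood at 0.06, 0.28, 0.06 and 0.11 CPM in Control, from 1, 4, 1 and 2 counts, and at 3.15, 2.74, 5.53 and 2.89 CPM in HMF, so the groups were far apart, and HMF replicate 3 was the highest. Its log2 fold change was 4.76 ± 0.44, or 5.38 without Control replicate 2, with an adjusted p of 1.72e-05 in edgeR's quasi-likelihood test. Its transcript is 95.7% identical over 96.5% of its length to that of 9930111J21Rik1, which rose by 3.0, and how reads were divided between them was not tested. Gm12185 (RefSeq also Irgb2b1), at 48795483 to 48883053, had 0.47, 0.92, 1.34 and 0.79 CPM in Control and 11.8, 11.4, 12.3 and 17.2 CPM in HMF. Its groups did not overlap and the log2 fold change was 3.9 ± 0.25. The row overlaps 4 others, 3 of them on its own strand, and its reads and theirs were not separated here. Among the 4 is Tgtp1, a T-cell-specific GTPase of the IRG family. Tgtp1 went from 1.70 ± 0.21 CPM (SD, n = 4) to 43.8 ± 6.96 and rose by 4.69 on the log2 scale. Tgtp2 and Ifi47, also IRGs, rose by 2.26 and 2.31.

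On chromosome 18, 4 members lie in an IRG group of 231 kb, from Gm4951 at 60345152 to BC023105 at 60576052, and all 4 rose with the 3 other genes tested there. Gm4841, which RefSeq also lists as Ifgga3, an interferon gamma induced GTPase, spans 60401377 to 60406344 on the minus strand. It had 1.54, 0.36, 1.22 and 1.29 CPM in Control and 13.6, 17.4, 19.3 and 22.6 CPM in HMF. Control replicate 2 was the lowest, and the groups did not overlap. The log2 fold change was 4.01 ± 0.27 with an adjusted p of 1.72e-06 in edgeR's quasi-likelihood test. Gm4951, RefSeq's Ifgga2, spans 60345152 to 60380892 on the plus strand and had the highest counts of the IRG members described here. It had 17.6, 19.5, 16.3 and 16.9 CPM in Control and 87.8, 81.3, 84.1 and 90.2 CPM in HMF. Its libraries lay close together within each group and the log2 fold change was 2.29 ± 0.07. Gm5970, a processed pseudogene at 60353915 to 60355130 inside the Gm4951 row and on the same strand, rose by 1.96 ± 0.15, from 2.73 ± 0.27 CPM (SD, n = 4) to 10.6 ± 1.61. Its reads and those of Gm4951 were not separated here. Gm50237, a lincRNA opposite the IRG gene F830016B08Rik, rose by 1.68 ± 0.26. The named genes of the group, Iigp1, F830016B08Rik and BC023105, rose by 2.95, 2.38 and 3.17.

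**Figure D3:**
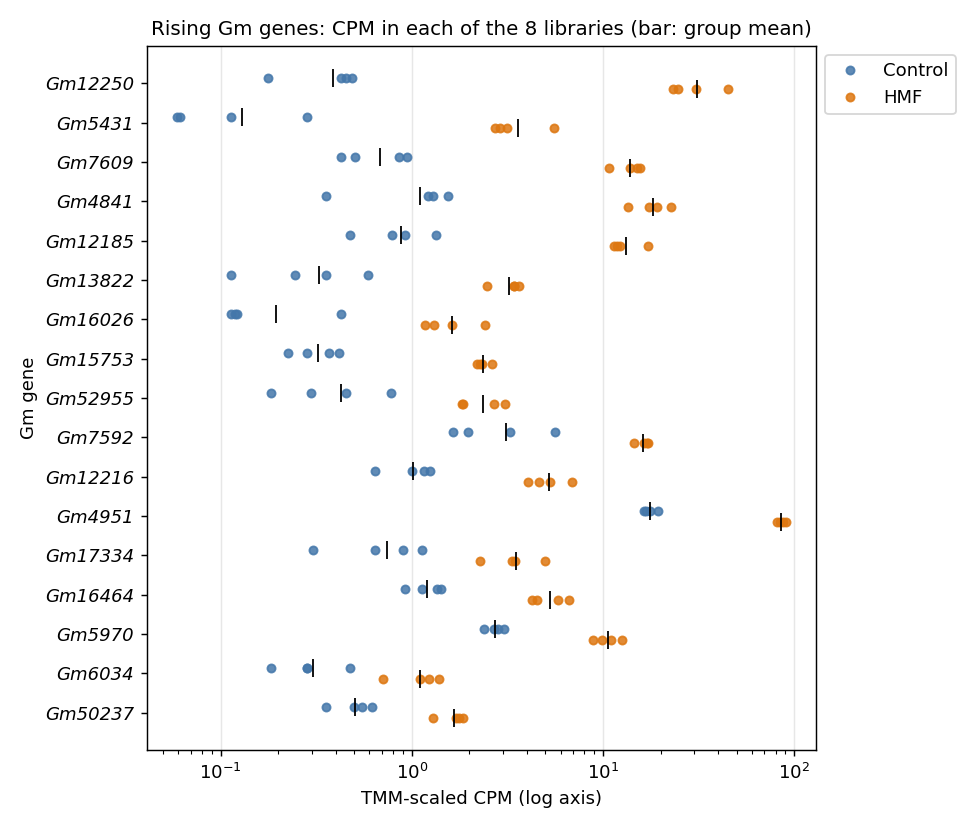
Each row is 1 Gm gene named for its rise, and each point is its TMM-scaled CPM in 1 of the 4 Control (blue) or 4 HMF (orange) libraries, on a log axis. Black bars are group means. In all 17 genes every HMF library lay above every Control library, which the naming rule asked of the 10 largest rises. Gm12250, Gm5431, Gm16026, Gm15753 and Gm6034 passed the count rule through HMF libraries alone and so had to be higher.

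The chromosome 1 region that ends with Sp100, at 84936703 to 85637719, held several rising members. The Sp genes encode nuclear body proteins that read chromatin and are induced by interferon. The span of 701 kb holds 8 members, of which 7 rose, and 16 further Gm rows below the count threshold. Its 5 other tested genes all rose, with 1.93 for Sp100, 3.09 for Sp110, 3.80 for Sp140, 2.93 for C130026I21Rik and 3.9 for A530040E14Rik on the log2 scale. Gm7609, a transcribed unprocessed pseudogene at 85177334 to 85191507, had 0.95, 0.43, 0.85 and 0.51 CPM in Control and 15.1, 13.9, 10.7 and 15.6 CPM in HMF. It overlaps C130026I21Rik on the opposite strand. Its log2 fold change was 4.31 ± 0.23 with an adjusted p of 2.1e-07 in edgeR's quasi-likelihood test. Gm7592, at 85454323 to 85479899 and 24.7 kb from Sp110, had 3.25, 5.61, 1.65 and 1.97 CPM in Control and 16.9, 16.3, 17.2 and 14.6 CPM in HMF, a log2 fold change of 2.40 ± 0.28. Control replicate 2 was the highest of its group, without overlap. Gm15433, Gm7582, Gm53056, Gm16026 and Gm52955 rose by 2.10, 2.35, 2.24, 3.10 and 2.47. Without Control replicate 2, Gm16026 rose by 3.73. Gm2619 missed the threshold at 2.10 ± 0.77 and an adjusted p of 0.0678, with 1.56 CPM in Control replicate 2 and 0 to 0.12 CPM in the other Control libraries. Without that library its log2 fold change was 4.70 with an adjusted p of 0.000428 in edgeR's quasi-likelihood test.

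Many genes of this region resemble each other. The Gm16026 transcript is 97.6% identical to Sp110 over 95% of its length, and that of Gm7609 is 99.3% identical to Gm15433 over 57.9%. Those of Gm53056 and Gm2619 are 98.7% and 97.8% identical to Gm7592, over 100% and 96.3% of their length. Gm15433, Gm7582, Gm52955 and Gm7592 have no GENCODE M21 entry under their gene ID and were not aligned as queries. Each of these rows counts as a separate member above. Gm15753, an unprocessed pseudogene on chromosome 5 at 137718616 to 137720002, is also a copy of Sp110, 96.5% identical over 99.6% of its length. It had 0.41, 0.28, 0.37 and 0.23 CPM in Control and 2.33, 2.19, 2.27 and 2.62 CPM in HMF. Its log2 fold change of 2.84 ± 0.25 lay next to the 3.09 ± 0.10 of Sp110, while its own neighbour Nyap1, 8.16 kb away, changed by -0.44 ± 0.25 and was not called. Sp110 stood at 8.09 ± 1.07 CPM (SD, n = 4) in Control and 69.0 ± 3.26 in HMF, far above the pseudogene. How reads that fit several places were assigned is not given in the sources used here, and the share of Sp110 reads in these rows was not tested.

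Near Irf1, which encodes an interferon-induced transcription factor, both members rose. Gm12216, a protein-coding model at chromosome 11, 53674244 to 53750082 on the minus strand, lies 5.04 kb from Irf1 and overlaps no other row. It had 1.01, 0.64, 1.16 and 1.24 CPM in Control and 4.04, 5.27, 4.61 and 6.90 CPM in HMF, and rose by 2.35 ± 0.24 on the log2 scale. Gm17334 lies inside the Irf1 row on the opposite strand, at 53660878 to 53664021, and rose by 2.23 ± 0.35. Irf1 rose by 2.03 ± 0.15, from 41.3 ± 2.25 CPM (SD, n = 4) to 169 ± 43.2.

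The highest member that rose was Gm20559, a processed transcript on chromosome 6 at 3333194 to 3346128 on the minus strand. It lies 26.1 kb from Samd9l, an interferon-induced gene that restricts viruses. Its CPM was 223, 276, 225 and 226 in Control and 607, 566, 580 and 597 in HMF, from 3685 to 11159 raw counts per library. The groups were far apart and the log2 fold change was 1.31 ± 0.08 with an adjusted p of 5.47e-07 in edgeR's quasi-likelihood test. Per length it stood at 51.3 ± 5.31 FPKM (fragments scaled to length and depth; SD, n = 4) in Control and 123 ± 4.0 in HMF, next to 45.7 ± 5.99 and 132 ± 8.14 FPKM for Samd9l. Gm43196 and Gm43197, in the same span of 73.8 kb, rose by 1.44 ± 0.12 and 1.0 ± 0.08, and Samd9l by 1.58 ± 0.09. Gm43197 lies within the Gm20559 row.

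Other rises lay beside single interferon-induced genes. Gm13822, an antisense RNA on chromosome 5 at 115055377 to 115061336, overlaps the start of Oasl1, which encodes a protein like the antiviral oligoadenylate synthetases. It had 0.59, 0.36, 0.24 and 0.11 CPM in Control and 2.47, 3.42, 3.61 and 3.42 CPM in HMF, and rose by 3.29 ± 0.34 where Oasl1 rose by 2.68 ± 0.12. Gm6034, which RefSeq also lists as H2-gs14-2, lies on chromosome 17 at 36353853 to 36369537, 213 bases from the class I gene H2-T22. It had 0.47, 0.28, 0.18 and 0.28 CPM in Control and 1.10, 1.23, 0.71 and 1.39 CPM in HMF, and rose by 1.84 ± 0.35, with H2-T22 at 2.06 ± 0.07. The Gm6034 transcript is 96.7% identical over 99.6% of its length to that of Gm19684, and how reads were divided was not tested. On the opposite strand the Gm6034 row overlaps Gm11127, which was not called at -0.32 ± 0.43. Gm16464 lies inside Trim30d on the same strand, on chromosome 7 at 104150262 to 104151356, and is a processed copy of Ccnyl1 with 99.3% identity over 96.3%. It rose by 2.13 ± 0.22, next to 1.97 ± 0.09 for its host Trim30d and 0.30 ± 0.09 for Ccnyl1. Smaller rises stood beside Parp14 (Gm49730, 1.45), Ddx60 (Gm45418, 1.26), Oas2 (Gm43068, 1.18) and Cd274 (Gm36043, 1.12), with Gm45418 at 58 bases from its gene and the other three overlapping theirs.

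None of the 103 called falls lay within 100 kb of an interferon-induced gene, and several of the largest lay beside cell division genes that fell too. The largest fall was that of Gm14091, an antisense RNA on chromosome 2 at 118660355 to 118664603, which overlaps Knstrn, a gene for a spindle and kinetochore protein. It had 2.78, 2.35, 2.56 and 2.87 CPM in Control and 0.69, 0.48, 0.14 and 0.59 CPM in HMF. Every HMF library was below every Control library, and the log2 fold change was -2.44 ± 0.31 with an adjusted p of 0.000166 in edgeR's quasi-likelihood test. Knstrn changed by -1.26 ± 0.14. Gm20667, 1.22 kb from Cdca2 on chromosome 14 at 67910626 to 67912555, changed by -1.62 ± 0.29. Its neighbour Cdca2, which recruits a phosphatase to mitotic chromatin, changed by -1.82 ± 0.13. Gm50322, a lincRNA on chromosome 19 at 9842288 to 9846359, had 7.81, 8.10, 5.68 and 4.67 CPM in Control and 2.12, 1.98, 2.48 and 2.35 CPM in HMF. It changed by -1.54 ± 0.20 and lies 3.30 kb from Incenp, a subunit of the chromosomal passenger complex, at -1.49 ± 0.19. The link to cell division genes was noticed after the values were seen and was not tested.

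Gm11223, a processed pseudogene on chromosome 4 at 69843867 to 69844316, is a copy of Stmn1, which encodes a protein that destabilizes microtubules, with 99.8% identity over its whole length. It stood at 2.98 ± 0.71 CPM (SD, n = 4) in Control and 1.04 ± 0.53 in HMF, a log2 fold change of -1.48 ± 0.33. Stmn1 lies elsewhere on chromosome 4 and changed by -1.21 ± 0.17, from 208 ± 36.9 to 89.5 ± 21.6 CPM. The nearest tested named gene of the pseudogene, Cdk5rap2, is 291 kb away and changed by -0.41. Gm2415, an antisense RNA on chromosome 9 at 118719143 to 118755523 over the end of Itga9, changed by -1.98 ± 0.31, while Itga9, an integrin subunit, stood at -0.86 ± 0.32 and missed the threshold with an adjusted p of 0.0682 in edgeR's quasi-likelihood test.

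Gm5340, Gm45895 and Gm3294 fell without a called neighbour in the same direction. The first is a processed pseudogene on chromosome 7 at 3333159 to 3334038 that had 5.03, 6.25, 6.23 and 5.07 CPM in Control and 2.12, 2.12, 1.84 and 1.02 CPM in HMF. It changed by -1.68 ± 0.22, and Myadm, 3.57 kb away, by -0.10 ± 0.06 without a call. Gm45895 changed by -1.65 ± 0.34 where Got2, 22 kb away, stood at -0.15 ± 0.06 without a call. Gm3294 changed by -1.60 ± 0.22 where Snd1, 46.5 kb away, was called higher at 0.17 ± 0.06.

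**Figure D4:**
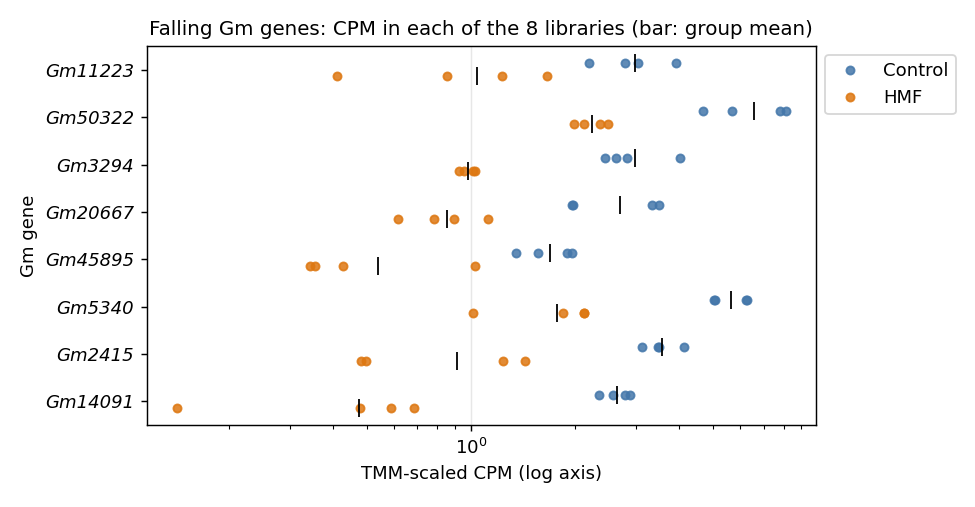
Each row is 1 of the 8 Gm genes named for their fall, and each point is its TMM-scaled CPM in 1 of the 4 Control (blue) or 4 HMF (orange) libraries, on a log axis. Black bars are group means. Every HMF library lay below every Control library in all 8 genes, as the naming rule asked.

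The change of each tested member was set beside that of the nearest tested gene with another name, and the correlation was higher where they overlapped than where they lay more than 50 kb apart. Over 273 members that overlapped this neighbour on the same strand, Pearson's r between the log2 fold changes was 0.63 and Spearman's rho 0.48. Over 393 that overlapped it on the opposite strand, r was 0.63 and rho 0.40. The values were 0.43 and 0.32 over 202 members up to 5 kb away, 0.45 and 0.22 over 244 members 5 to 50 kb away and 0.19 and 0.10 over 321 members farther than 50 kb. Without members near interferon-induced genes, r was 0.52, 0.56, 0.38, 0.26 and 0.04 in the same order. These are correlations across genes of the same 8 libraries, and genes are not independent replicates. Of 184 called members 89 had a called neighbour, and 80 of these moved in the neighbour's direction. In all, 883 members overlap another row, and 548 of them overlap a row on the other strand. Strand use in counting is not stated in the sources used here, so reads of such opposite-strand pairs cannot be told apart. Reads of rows that overlap on the same strand were not separated here either.

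**Figure D5:**
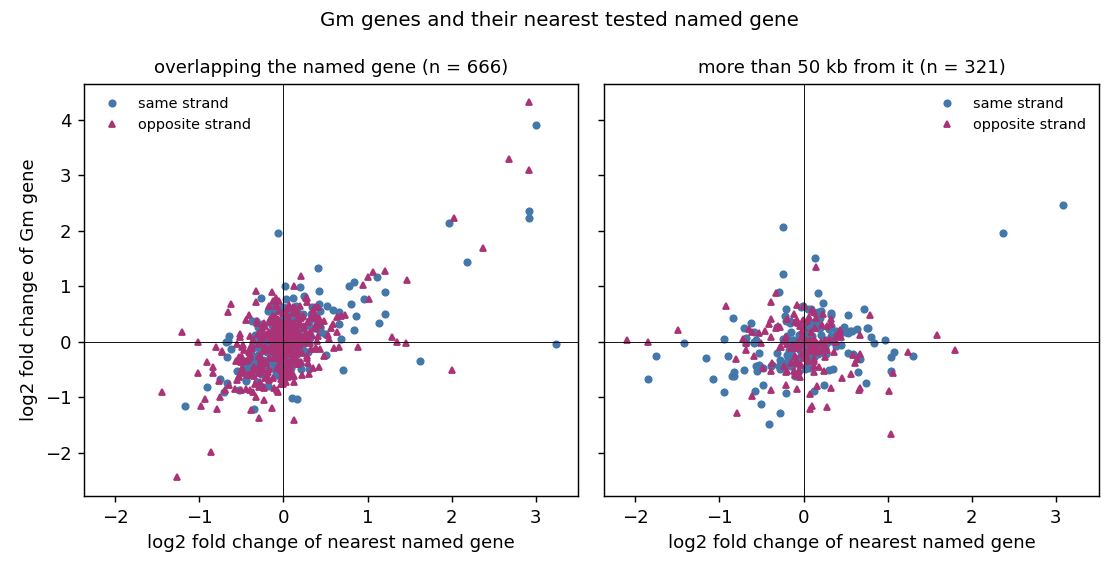
Each point is 1 tested Gm gene, with the log2 fold change (HMF over Control) of its nearest tested gene with another name on the x axis and its own on the y axis. Circles lie on the same strand as the neighbour and triangles on the opposite strand. The left panel shows 666 genes that overlap the neighbour, and the right panel 321 genes more than 50 kb from it, where Pearson's r was 0.19.

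Near-identical copies were compared in the same way. For 562 members a transcript of another gene matched theirs at 95% identity or more over at least 50% of its length, and 479 of them had a copy that was tested. The log2 fold changes of member and copy gave r of 0.55 and rho of 0.36 over these 479, and 0.39 and 0.38 over the 381 processed pseudogenes among them. Of 46 members called with a tested copy, 44 had its sign. How far the values of such members hold reads of the copy was not tested, and they are reported as uncertain. The 937 members that were aligned and had no such transcript gave 50 higher and 74 lower of 887 tested, and the 8 without a GENCODE M21 entry were not aligned as queries.

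The members of highest level did not all change. Gm42047, a lincRNA on chromosome 8 at 122559986 to 122567917, took 47303 to 78333 counts in each library and stood at 743 ± 168 FPKM (SD, n = 4) in Control and 631 ± 58.0 in HMF. The groups overlapped, and the log2 fold change of -0.19 ± 0.14 was not called. Gm9794, a copy of the ribosomal protein gene Rpl23, stood at 498 ± 25.9 FPKM in Control and 498 ± 23.8 in HMF. It was not called, at 0.05 ± 0.06 on the log2 scale. Gm10123, whose transcript is 100% identical to that of the peptidyl-prolyl isomerase gene Ppia, spread widely within each group. Its CPM was 311, 138, 104 and 47.5 in Control and 79.7, 60.7, 161 and 155 in HMF, with the groups overlapping. The log2 fold change of -0.39 ± 0.48 was not called.

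At the edge of the count rule, the fourth highest count was 10 for the members Gm31105, Gm42921 and Gm44645 and 9 for Gm44722, Gm15327 and Gm45203, which were left out. The Control libraries of Gm31105 held 10, 11, 10 and 7 counts and its HMF libraries 1, 14, 2 and 5. For Gm44722, just outside, they were 9, 9, 15 and 26 against 9, 11, 7 and 4.

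Coordinates are given as deposited. The submitters' notes name mm10, but of 52135 gene IDs shared with GENCODE M21 on GRCm38, the assembly behind mm10, only 2.97% had the same start, while 98.9% had the same length from start to end. The positions outside the promoter windows are therefore not mm10 positions, their build is not named in the files, and distances were measured within them alone.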

How the data were processed

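RNA was poly(A)-selected and sequenced from 8 samples of B16-OVA cells, 4 per group. The authors trimmed reads with Trimmomatic, aligned them with HISAT2 2.0.5 to mm10 and counted them with HTSeq, and list DESeq2, per the submitters' processing notes. No source used here gives strand use, read assignment between copies or the annotation release. The deposited table holds raw counts per gene and FPKM values, the latter normalized by the authors for length and depth.

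From the counts, TMM-scaled CPM and log2 fold changes were computed with edgeR 4.0.16 in R 4.3.3 (filterByExpr, quasi-likelihood test on group alone, Benjamini-Hochberg over 15082 genes). The fit was tested on simulated data with members changed in either direction. It recovered 6.67% of 30 members changed by 1.5-fold, 39.3% of 28 changed by 2-fold and 93.8% of 32 changed by 4-fold. Of all 131 calls among 14847 genes in the simulated data, 4.58% were false. The real data gave 4030 calls of 15082 genes, so the adjusted p was stricter in the simulation. The recovered shares belong to that setting and may understate those in the real fit. Standard errors were taken as the log2 fold change divided by the square root of F. DESeq2 1.42.0 and limma 3.58.1 on log2(FPKM + 1) and log2(FPKM + 0.1) were alternatives, as were scaling, filters, distances and left-out libraries. Sets without members that passed in 1 group alone, or without near-identical copies, were added after seeing the data. Transcripts of members were aligned to all GENCODE M21 transcripts with blastn 2.17.0, and promoter windows came from RefSeq.

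Members, lists and the naming rule were chosen with earlier results of these data known. Named were the 10 largest rises and 8 largest falls among called members with a mean of at least 0 log2 CPM and groups that did not overlap, up to 14 called members within 100 kb of a list gene, the 5 of highest CPM and the 3 on each side of the count threshold. Others named in the text were chosen after their values were seen. Some of these named items are not reported here.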

Additional observations from a re-analysis of the deposited data

Results flagged for a closer look

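Within the 4 libraries of a group, 1 library lay far from the other three in 6 of 60 group-wise sets of CPM values by Dixon's test of the gap over the range, at the 95% critical value. Chance alone flags about 1 in 20 sets. Gm5431 stood at 5.53 CPM in HMF replicate 3 and at 2.74 to 3.15 in the other HMF libraries. Gm12185 stood at 17.2 CPM in HMF replicate 4 and at 11.4 to 12.3 in the others. Gm13822 stood at 2.47 CPM in HMF replicate 1, below the 3.42 to 3.61 of the others. Gm45895, which fell, stood at 1.03 CPM in HMF replicate 1 and at 0.34 to 0.43 in the others. In Control, replicate 2 was the far library for Gm16026, at 0.43 CPM against 0.11 to 0.12, and for Gm20559, at 276 CPM against 223 to 226.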

How the results depend on the processing

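The count of called members was 184 and ran from 175 to 220 under other scalings, filters on tested genes and tools, with 181 by DESeq2 and 217 to 220 by limma on FPKM values. Members with 20 or more counts in 4 libraries gave 155, 65 higher and 90 lower, and those with a mean count of at least 10 gave 181. Leaving out each library in turn gave 141 to 174 called members, 64 to 85 of them higher and 77 to 93 lower, and 25 to 27 called members near interferon-induced genes. No label says that replicate numbers pair the libraries. Same-numbered Control and HMF libraries gave correlations of -0.35, -0.10, 0.31 and -0.43 in their deviations from the group means. Differently numbered ones ran from -0.46 to 0.46, and with 4 libraries per group such values cannot exclude pairing. With the replicate number as a block, 66 members were higher and 68 lower, 132 of these 134 shared with the fit without it, and 24 near members rose. Restricting the set to members that overlap no other row left 91 called, 35 higher and 56 lower, and 8 near interferon-induced genes. Members aligned without a near-identical transcript gave 124, 50 higher and 74 lower. These sets hold fewer members by construction. Windows of 25 kb and 500 kb gave 18 and 35 called members. Scaling to library size alone gave 39.0% of called members higher against 44.0% with TMM, and 41.7% against 51.4% of all called genes, while limma on FPKM values gave 36.8% to 37.8% of members and 41.3% to 41.7% of all genes. The median of all genes moved by less than 0.1 on the log2 scale under each scaling. The 30 named and tested members kept their direction and their side of the threshold under each alternative that could test them, except that Gm10123, never called, turned from -0.39 to 0.25 without Control replicate 1, and ran from -0.69 to 0.25 as libraries were left out; the cause was not tested. On the log2(FPKM + 1) scale the changes of low genes shrank, as for Gm16026 from 3.10 to 0.41, since the pseudocount is large beside their values. Depth limits the low members, of which 280 had a mean below 0 log2 CPM. P-values measure the spread between libraries that may be technical replicates.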
